A study of Drosophila melanogaster with 12 samples.

Results

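The difference between G9a mutants and controls in how head transcripts had changed by 12 h of paraquat exposure was measured in 8 of the 12 libraries of the study, those of 0 h and 12 h, and over 10530 of the 15682 genes in the count table. Mutant libraries came from male flies with the G9aDD1 allele, which arose when a P-element was excised and which the study describes as null, of a gene on the X chromosome of which males have a single copy. Control libraries came from males with a precise excision of the same element in the same genetic background. Flies were 5 to 9 days old, were moved to food with 50 mM paraquat for 12 h or taken at 0 h without exposure, and were frozen in pools of 200 heads per library. Each of the 4 combinations has 2 libraries, so every sample is an average over many flies and each genotype is a single line. There were no flies kept on plain food until 12 h, so an effect of paraquat cannot be told apart from one of the hour of day or of the changed food. The value described for each gene is the mutant response (12 h minus 0 h) minus the control response, on the log2 scale of normalized counts plus 1, and a positive value means that the transcript ended higher, relative to its own start, in mutants.

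G9a is a histone methyltransferase that places methyl groups on lysine 9 of histone H3 in euchromatin. Paraquat is a herbicide that takes electrons from the respiratory chain and passes them to oxygen, which makes superoxide. Cells answer with conserved programmes that are read out as transcripts, among them glutathione transferases and peroxidases that remove reactive products, heat shock proteins that hold damaged proteins, the integrated stress response that changes translation and amino acid supply, and the JNK and JAK-STAT pathways that signal damage between cells.

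Depth moved with time and not with genotype, since 12 h libraries held 21872478 to 24078932 reads on genes, against 32325896 to 41393992 at 0 h. The largest spread between duplicates was that of the 12 h controls, with a standard deviation of 0.57 (log2) over genes, against 0.29 to 0.38 in the other 3 groups used here. G9a itself had 3700.2 and 3633 normalized counts in mutants at 12 h, against 3553 and 3549 at 0 h, and 2779 and 2780 in controls at 12 h, against 2740.1 and 3087 at 0 h, a difference of 0.11 ± 0.08 (SE, adjusted p = 0.33). Its count was not lower in mutants, and it does not check the labels, since which part of the gene the excision removes is not given in the sources used here. Markers of brain neurons were present at high level, with 484500 to 638800 summed normalized counts for 25 synaptic genes in each of the 8 libraries, whereas 20 gut protease genes summed to 19 to 43 and 13 testis genes to 324 to 484. Of other body parts, 16 flight muscle genes summed to 125700 in each mutant library at 0 h, against 190900 and 198500 in controls. At 12 h these were 108000 and 100500 in mutants and 151700 and 157100 in controls. The 11 accessory gland genes summed to 158.6 and 134.6 in mutants at 0 h, and to 21.6 to 42.6 in the other libraries used here. How much tissue from outside the head was in the pools was not tested. The study calls the 2 samples of a group biological duplicates, and neither it nor the labels say whether they came from separate cultures, so adjusted p-values measure the spread between these pools.

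A gene was called when the 2 responses differed by at least 1.5-fold with limma's p, adjusted by Benjamini-Hochberg over all tested genes, not above 0.05. The difference was called for 1663 of 10530 genes (15.8%), higher in mutants for 765 (7.26%) and lower for 898 (8.53%), and 3960 genes had an unadjusted p under 0.05. These 3 shares are the ones against which the counts of each gene list below can be read. In 1662 of the 1663 the 4 pairings of a 12 h with a 0 h library in mutants lay wholly above or wholly below the 4 pairings in controls, a separation that 50.7% of all tested genes showed. The median difference over all tested genes was 0.02 and the median size of a called difference was 1.11. Differences of 4-fold or more were found for 244 genes, 85 higher and 159 lower. By chromosome arm, 16.2% to 18.3% of the genes on 2L, 2R, 3L and 3R were called, against 12.5% on X and 5.68% of the 88 on 4.

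**Figure D1:**
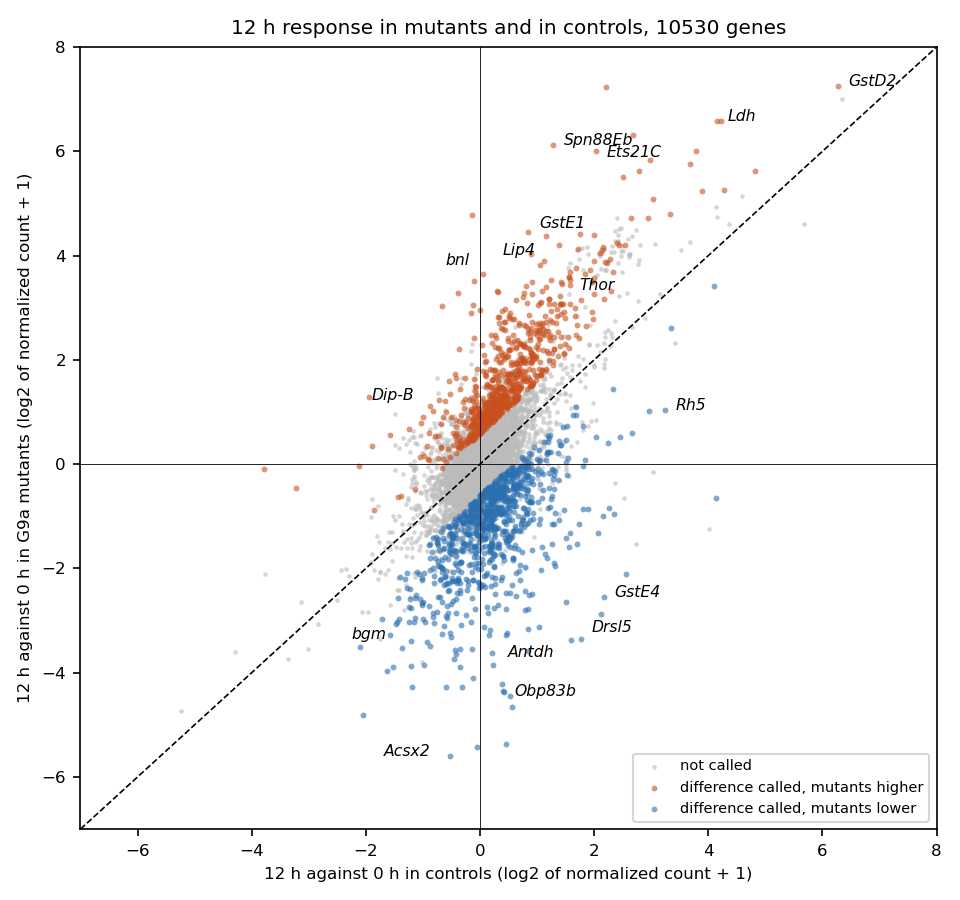
Change between 0 h and 12 h in controls (horizontal axis) and in G9a mutants (vertical axis) for 10530 genes, each as log2 of normalized count plus 1 and as the mean of 2 libraries per group. The dashed line marks equal responses; the 765 genes called higher in mutants lie above it and the 898 called lower lie below it.

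The called genes took 4 shapes. Of the 1663 genes, 648 (39%) had a positive response in both genotypes, with medians of 1.51 in mutants and 0.56 in controls, and 602 of these were called higher. A further 326 (19.6%) had a negative response in both, with medians of -1.58 in mutants and -0.37 in controls. Over all tested genes the response was called on its own for 23% in mutants and 10.2% in controls. The response was negative in mutants and positive in controls for 534 genes (32.1%), but it was called on its own in both genotypes for 58 of them. The reverse, positive in mutants and negative in controls, held for 155 genes (9.32%), of which 5 were called on their own in both. The 2 responses and their difference use the same libraries, so these counts describe the shape of the contrast.

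The largest differences in each shape can be read in single libraries. Among genes that rose in both genotypes the largest was Spn88Eb, a serpin, with 4931 and 6679.6 normalized counts in mutants at 12 h, against 67.3 and 97.9 at 0 h, and 371 and 375 in controls at 12 h, against 158 and 148 at 0 h. All mutant 12 h values lay far above the controls, and the difference was 4.85 ± 0.37 (SE, adjusted p = 3.0e-06). CG5697, a gene of no stated role here, had 624 and 787 normalized counts in mutants at 12 h, against 6.47 and 9.36 at 0 h, and 73 and 53.6 in controls at 12 h, against 9.56 and 8.36 at 0 h, a difference of 3.64 ± 0.39 (SE, adjusted p = 3.2e-05). The 3 largest differences with a called rise in mutants and a called fall in controls were those of NimC1, Dip-B and CG5639. Dip-B, a dipeptidase, had 6450.4 and 6196 normalized counts in mutants at 12 h, against 2958 and 2909 at 0 h, and 1896 and 1789 in controls at 12 h, against 3644 and 3138 at 0 h. Each mutant library at 12 h was above, and each control library below, its own 0 h level, and the difference was 1.98 ± 0.09 (SE, adjusted p = 1.1e-07). CG5639 differed by 1.5 ± 0.14 (SE, adjusted p = 1.5e-05). At the other end Drsl5, a drosomycin-like antimicrobial peptide gene, had 282 and 291 normalized counts in mutants at 12 h, against 2694 and 3186 at 0 h, and 3129 and 3409.8 in controls at 12 h, against 993 and 919 at 0 h. It fell in mutants and rose in controls, with duplicates close together in all groups, and its difference was -5.12 ± 0.12 (SE, adjusted p = 9.4e-10). Among genes with a negative response in both genotypes, CG9497 differed by -3.96 ± 0.16 (SE, adjusted p = 4.3e-08), and the abundant transcript FBgn0040813, which has no symbol in the annotation used, had 766 and 1227 normalized counts in mutants at 12 h, against 14932 and 23654 at 0 h, and 15859 and 15465 in controls at 12 h, against 23338 and 24259 at 0 h, a difference of -3.67 ± 0.31 (SE, adjusted p = 6.2e-06).

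Hsp70 and some other heat shock proteins, which bind unfolded proteins, separated the genotypes at 12 h. With the near-identical Hsp70 copies counted once, 4 of 11 genes for Hsp70, Hsp90 and their co-chaperones were called higher and 0 lower, 5 lay below 0 and the median difference was 0.07, against 0.02 over all genes. With each of the 6 copies counted, 9 of 16 were called higher and the median was 0.91. Hsp70Aa had 5645 and 9961 normalized counts in mutants at 12 h, against 1058 and 1065 at 0 h, and 1305 and 1107 in controls at 12 h, against 995 and 929 at 0 h. Among the 0 h and 12 h libraries those of mutants at 12 h were the only high ones, and controls at 12 h were near every 0 h value. Its difference was 2.50 ± 0.46 (SE, adjusted p = 0.0016). Hsp68, an inducible relative, differed by 2.30 ± 0.40 (SE, adjusted p = 0.0011), and Hsp70Ab, Hsp70Ba, Hsp70Bb, Hsp70Bbb and Hsp70Bc are close copies of Hsp70Aa whose reads cannot be told apart with certainty, so they are not separate results. Of the small heat shock proteins, which hold clients without ATP, 4 of 9 were called higher and 2 lower. Hsp26 had 3828 and 6335 normalized counts in mutants at 12 h, against 560.1 and 588 at 0 h, and 1212 and 953 in controls at 12 h, against 594 and 627 at 0 h, a difference of 2.28 ± 0.31 (SE, adjusted p = 0.00018), and Hsp27 differed by 2.33 ± 0.40 (SE, adjusted p = 0.0011) and Hsp23 by 1.26 ± 0.26 (SE, adjusted p = 0.003). The larger of the 2 called lower was CG13133, at -2.70 ± 0.31 (SE, adjusted p = 5.4e-05). Hsp83, the Hsp90 of flies, was at -0.39 ± 0.11 (SE, adjusted p = 0.022), short of 1.5-fold, and Hsf, the transcription factor of the heat shock response, at 0.07 ± 0.07 (SE, adjusted p = 0.53).

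At 6 h the difference of Hsp70Aa was not found. Hsp70Aa had 1266 and 960.3 normalized counts in mutants and 2276 and 996 in controls at 6 h, and the difference of the 6 h responses was -0.59 (adjusted p = 0.48). The 2 genotypes overlapped at that time. The small heat shock gene CG13133, in contrast, was already at -2.13 at 6 h (adjusted p = 0.00073), and both times share the 0 h libraries. The difference of the responses from 6 h to 12 h, which uses no 0 h library, was 3.09 for Hsp70Aa (adjusted p = 0.0017), a comparison in which 5.24% of all tested genes were called. The call of Hsp70Aa at 12 h was kept when any single library was left out, with differences of 2.09 to 2.91, but that of Hsp70Bbb was lost without mutant 12 h replicate 2.

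**Figure D2:**
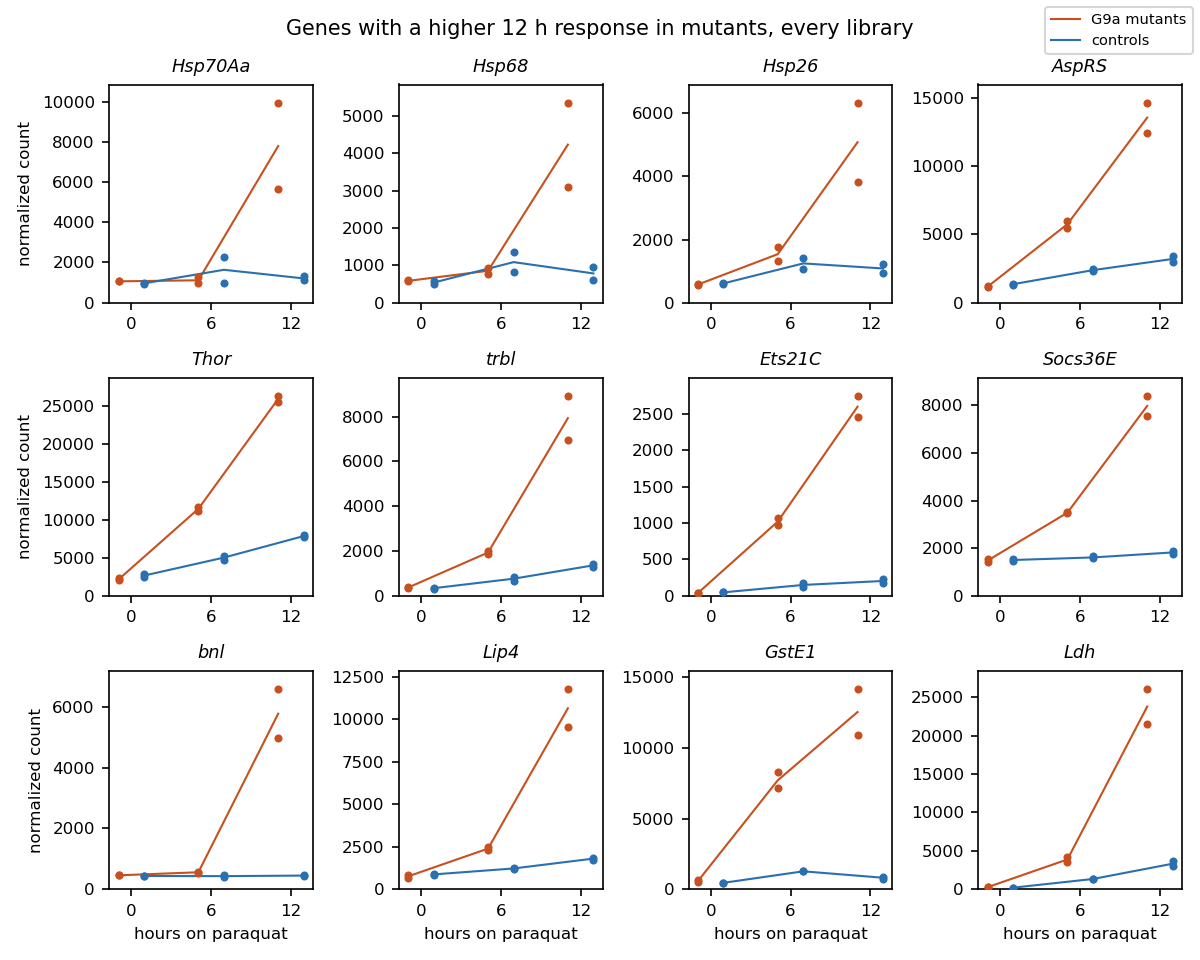
Normalized counts of 12 genes with a higher 12 h response in mutants, at 0, 6 and 12 h on paraquat (horizontal axis), each panel with its own linear axis from 0. Points are single libraries, lines join the means of 2 libraries, and mutants are drawn left of controls. Hsp70Aa and bnl are highest in mutants at 12 h, with Hsp70Aa also raised in control 6 h replicate 1 (2276), whereas GstE1 is already high in mutants at 6 h.

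Of 15 genes of the unfolded protein and integrated stress responses, 9 were called higher and 0 lower, with a median of 0.62 and 5 members below 0. Thor, the 4E-BP that restrains cap-dependent translation, had 25531 and 26307 normalized counts in mutants at 12 h, against 2045 and 2285 at 0 h, and 7954 and 7782 in controls at 12 h, against 2490.2 and 2852 at 0 h. Both genotypes rose and the mutant values at 12 h lay above all others, a difference of 2.02 ± 0.10 (SE, adjusted p = 2.0e-07). trbl, the tribbles pseudokinase, had 6938 and 8924 normalized counts in mutants at 12 h, against 385 and 363 at 0 h, and 1437 and 1289 in controls at 12 h, against 326 and 359 at 0 h, a difference of 2.40 ± 0.17 (SE, adjusted p = 2.0e-06). The sensor kinases Ire1 and PEK differed by 1.09 ± 0.08 (SE, adjusted p = 1.7e-06) and 0.96 ± 0.09 (SE, adjusted p = 9.2e-06). crc, the ATF4 of flies, was at -0.14 ± 0.07 (SE, adjusted p = 0.16) and Hsc70-3, the BiP of flies, at -0.18 ± 0.05 (SE, adjusted p = 0.026), and the chaperone Gp93 was at -0.26 ± 0.08 (SE, adjusted p = 0.027).

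Aminoacyl-tRNA synthetases, which charge tRNAs and are known targets of ATF4, moved in the same direction. Of 30 genes 11 were called higher and 0 lower. All 11 were among the 16 synthetases with a cytosolic or shared role, which had a median difference of 0.75, whereas 0 of the 14 mitochondrial ones were called, at a median of 0.05 and a range of -0.49 to 0.38. This split by symbol was made after the values were seen. AspRS had 12472 and 14661 normalized counts in mutants at 12 h, against 1128 and 1212 at 0 h, and 3405 and 3001 in controls at 12 h, against 1383 and 1326 at 0 h, a difference of 2.29 ± 0.12 (SE, adjusted p = 2.0e-07). Mutants at 12 h stood above all other libraries, and controls at 12 h stood above both 0 h groups. GlyRS, AsnRS and AlaRS differed by 1.57, 1.47 and 1.47. Of 37 initiation factors, 6 were called higher and 0 lower, among them eIF2beta at 1.36 ± 0.12 (SE, adjusted p = 9.2e-06) and the guanine exchange factor subunits eIF2Bdelta at 1.05 ± 0.11 (SE, adjusted p = 3.7e-05) and eIF2Balpha at 0.89 ± 0.12 (SE, adjusted p = 0.00016). In all 16.2% of these factors were called, against 15.8% of all tested genes, 11 lay below 0 and their median was 0.07. Of 80 cytosolic ribosomal proteins 0 were called by limma, edgeR or DESeq2, which for limma changed without mutant 12 h replicate 1. Their shift was small and mostly positive, with 73 above 0, 7 below 0 and a median of 0.10. Of these proteins 6 passed the adjusted p alone, which 14% of all tested genes did in that direction, and 13 had an unadjusted p under 0.05. For the mitochondrial synthetases 3 of 14 had such a p, and edgeR and DESeq2 also called 0.

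Many JNK pathway genes and targets had a higher response in mutants. In this list 8 of 18 tested genes were called higher and 0 lower, with a median of 0.43. Ets21C, a JNK-induced ETS transcription factor, had 2450.5 and 2747 normalized counts in mutants at 12 h, against 37.6 and 41 at 0 h, and 238 and 171 in controls at 12 h, against 46.5 and 50.2 at 0 h. Controls at 12 h were above their 0 h level by less than mutants were above theirs, and the difference was 3.97 ± 0.24 (SE, adjusted p = 6.2e-07). Gadd45, a stress-induced gene, had 4395 and 5013 normalized counts in mutants at 12 h, against 314 and 375 at 0 h, and 720.2 and 574 in controls at 12 h, against 186 and 215 at 0 h, a difference of 2.09 ± 0.19 (SE, adjusted p = 8.1e-06). p53 differed by 1.10 ± 0.15 (SE, adjusted p = 0.00016) and Irbp18, a bZIP partner of Xrp1, by 0.91 ± 0.11 (SE, adjusted p = 8.0e-05), and puc, the phosphatase that damps JNK, by 0.80 ± 0.10 (SE, adjusted p = 8.0e-05). The core kinase bsk was at -0.12 and its activator hep at 0.35, both short of the call. The apoptosis genes rpr, hid, grim and skl, which trigger caspases, were at 0.05, 0.25, 0.03 and 0.13, none called.

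Ligands that signal between cells were among the large differences. bnl, the FGF ligand that guides tracheal branches, had 4971 and 6588 normalized counts in mutants at 12 h, against 458 and 449 at 0 h, and 433 and 458 in controls at 12 h, against 418 and 445 at 0 h. Controls at 12 h lay within their 0 h range or just above it and mutants were high in both 12 h libraries, a difference of 3.61 ± 0.16 (SE, adjusted p = 7.0e-08), while at 6 h mutants had 569 and 539 normalized counts and controls 449.5 and 403. The JAK-STAT ligands upd2 and upd3 were at low level. upd2 had 79 and 89 normalized counts in mutants at 12 h, against 2.59 and 3.6 at 0 h, and 12 and 4.66 in controls at 12 h, against 4.46 and 1.67 at 0 h, a difference of 3.22 ± 0.74 (SE, adjusted p = 0.0068), and upd3 had 216 and 258 normalized counts in mutants at 12 h, against 3.24 and 3.6 at 0 h, and 20.3 and 11.6 in controls at 12 h, against 0.638 and 0 at 0 h, a difference of 2.06 ± 0.67 (SE, adjusted p = 0.037). The control 0 h count of upd3 was a single read in both libraries together, which makes its control rise 43.2-fold, for which counting error alone allows 7.13 to 1770.9 (95% interval). Its call held under 10 of 24 alternatives. Socs36E, a feedback target of JAK-STAT signalling, had 7560.4 and 8402 normalized counts in mutants at 12 h, against 1538 and 1427 at 0 h, and 1906 and 1744 in controls at 12 h, against 1473 and 1539.9 at 0 h, a difference of 2.15 ± 0.09 (SE, adjusted p = 6.6e-08). The Turandot stress peptides differed in the other direction, TotA by -1.88 ± 0.48 (SE, adjusted p = 0.012) and TotX by -1.68 ± 0.30 (SE, adjusted p = 0.0015), and the receptor dome at 0.19 and the kinase hop at 0.18 were not called. Over the list, 4 of 13 were called higher and 2 lower. Without mutant 0 h replicate 1 or 2 the number called lower was 4 and 1.

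Detoxification genes did not move as a block. In the epsilon class of glutathione transferases 4 of 13 were called higher and 4 lower, with a median of 0.13. GstE1 had 10924 and 14174 normalized counts in mutants at 12 h, against 525 and 612 at 0 h, and 884 and 724 in controls at 12 h, against 436 and 452 at 0 h. Mutant values at 12 h stood far above controls at 12 h, and the difference was 3.61 ± 0.18 (SE, adjusted p = 1.7e-07). GstE8 and GstE9 differed by 1.63 and 1.51. GstE4, of the same cluster, went the other way, with 61.7 and 81.8 normalized counts in mutants at 12 h, against 440.3 and 401 at 0 h, and 220.1 and 248 in controls at 12 h, against 51.6 and 51 at 0 h, a difference of -4.71 ± 0.30 (SE, adjusted p = 1.0e-06). In the delta class 3 of 10 were called higher and 2 lower, with a median of 0.51, and 1 was called lower without control 0 h replicate 2, control 12 h replicate 2, mutant 0 h replicate 2 or mutant 12 h replicate 2. GstD8 was at -2.67 ± 0.60 (SE, adjusted p = 0.0057), whereas GstD1, GstD2 and GstD3 rose in both genotypes and by more in mutants. GstD2 had 12820 and 13889 normalized counts in mutants at 12 h, against 67.3 and 112 at 0 h, and 3741 and 3174 in controls at 12 h, against 42.1 and 45.1 at 0 h, and its responses of 7.24 in mutants and 6.27 in controls differed by 0.97 ± 0.24 (SE, adjusted p = 0.011). Of 79 cytochromes P450 12 were called higher and 12 lower, 30.4% in all against 15.8% of all tested genes. Cyp6g1, known for insecticide resistance, had 892 and 1108 normalized counts in mutants at 12 h, against 2948 and 3321 at 0 h, and 6245 and 6118 in controls at 12 h, against 3637 and 2981 at 0 h, a difference of -2.56 ± 0.15 (SE, adjusted p = 6.4e-07), and Cyp6w1 and Cyp313a1 differed by -2.90 and -3.20. Cyp4e3 and Cyp6d4 lay at the other end, at 2.36 ± 0.23 (SE, adjusted p = 1.7e-05) and 2.25 ± 0.22 (SE, adjusted p = 1.8e-05).

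Of 15 thiol, peroxide and superoxide enzymes 5 were called higher and 2 lower. Prx2540-1 and Prx2540-2 (Prx6b and Prx6c in the annotation used), 1-cysteine peroxiredoxins, differed by 2.24 ± 0.24 (SE, adjusted p = 2.9e-05) and 1.96 ± 0.19 (SE, adjusted p = 1.8e-05), and because these copies are near-identical their reads cannot be assigned with certainty. Gtpx, a phospholipid hydroperoxide peroxidase, differed by 1.20 ± 0.10 (SE, adjusted p = 6.4e-06). Catalase, Cat, had 15242 and 17144 normalized counts in mutants at 12 h, against 4006 and 4628 at 0 h, and 9726 and 9412 in controls at 12 h, against 4129.9 and 3755 at 0 h, a difference of 0.63 ± 0.11 (SE, adjusted p = 0.0014). Without control 0 h replicate 1, mutant 0 h replicate 1 or mutant 12 h replicate 2 the call of Cat was lost and 3 of the 15 genes were called higher. Superoxide dismutases had negative values, with Sod3 at -0.68 ± 0.11 (SE, adjusted p = 0.00082), which was called, and Sod1 at -0.57 ± 0.09 (SE, adjusted p = 0.00054) and Sod2 at -0.29 ± 0.08 (SE, adjusted p = 0.021), both short of 1.5-fold. In the cnc (Nrf2) pathway 3 of 8 genes were called higher, Gclm, a glutathione synthesis subunit, at 1.37 ± 0.13 (SE, adjusted p = 1.8e-05), ref(2)P, the p62 of flies, at 0.80 ± 0.10 (SE, adjusted p = 8.1e-05) and the inhibitor Keap1 at 0.72 ± 0.12 (SE, adjusted p = 0.0011), while cnc itself was at 0.28.

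Lipid genes went in both directions. Of 19 genes of lipid storage and mobilisation, 6 were called higher and 4 lower. Lip4, a lipase, had 9531 and 11789 normalized counts in mutants at 12 h, against 682 and 824 at 0 h, and 1858 and 1736 in controls at 12 h, against 880.4 and 851 at 0 h, a difference of 2.77 ± 0.14 (SE, adjusted p = 2.0e-07). bmm, the brummer triglyceride lipase, had 7374 and 8452 normalized counts in mutants at 12 h, against 1261 and 1364 at 0 h, and 3517 and 3382 in controls at 12 h, against 1580.4 and 1628 at 0 h, a difference of 1.48 ± 0.10 (SE, adjusted p = 1.0e-06). The perilipins Lsd-1 and Lsd-2 differed by 1.33 and 1.28, and Jabba by 1.10. mdy, the DGAT1 that finishes triglyceride synthesis, had 179.6 and 180.5 normalized counts in mutants at 12 h, against 982 and 1354 at 0 h, and 419.9 and 417 in controls at 12 h, against 875 and 813 at 0 h. Mutant values at 12 h were the lowest of all, and the difference was -1.66 ± 0.17 (SE, adjusted p = 2.0e-05). Dgat2, which catalyses the same step, went up in both genotypes, with 4573 and 5209 normalized counts in mutants at 12 h, against 57.6 and 97.2 at 0 h, and 496 and 517 in controls at 12 h, against 32.5 and 39.3 at 0 h, a difference of 2.22 ± 0.27 (SE, adjusted p = 8.2e-05). Agpat4, an acyltransferase, Desat1, a desaturase, and ACC, which makes malonyl-CoA, differed by -1.29, -0.89 and -0.67. In the triglyceride synthesis list of the study, which shares genes with this one, 10 of 19 were called lower and 2 higher, with a median of -0.68. The study drew up that list from gene ontology and by hand. In it CG11437 differed by -2.65 ± 0.58 (SE, adjusted p = 0.005) and CG11438 by -0.79 ± 0.25 (SE, adjusted p = 0.034), and CG11438 kept its call in 15 of 24 alternatives. bgm, a bubblegum acyl-CoA synthetase, had 126 and 172 normalized counts in mutants at 12 h, against 1110.4 and 1312 at 0 h, and 1168 and 1088 in controls at 12 h, against 3101 and 3091 at 0 h, a difference of -1.57 ± 0.17 (SE, adjusted p = 4.1e-05). In the beta oxidation list of the study 5 of 36 were called higher, CROT and Hmgs with differences of 1.72 and 1.58 among them, and 5 lower. That was 27.8% of the list, against 15.8% of all tested genes.

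Of 13 genes for lactate dehydrogenase and glycolytic enzymes 2 were called higher and 1 lower, 23.1% in all against 15.8% of all tested genes. Ldh had 21512 and 26061 normalized counts in mutants at 12 h, against 215 and 281 at 0 h, and 3623 and 2995 in controls at 12 h, against 183 and 186 at 0 h, so it rose in all libraries at 12 h and by more in mutants, with a difference of 2.43 ± 0.19 (SE, adjusted p = 3.0e-06). Gapdh2 differed by 0.69 ± 0.07 (SE, adjusted p = 2.5e-05) and Hex-C by -0.61 ± 0.15 (SE, adjusted p = 0.011), and the median of 13 genes was -0.06. Hex-C lost its call without control 0 h replicate 2, mutant 0 h replicate 2 or mutant 12 h replicate 1, at -0.76 to -0.46 over all libraries left out, and also under median centring, and the number called lower ranged over 0 to 2 when 1 library was left out. ImpL2, a secreted insulin antagonist, had 19196 and 25248 normalized counts in mutants at 12 h, against 1711 and 1978 at 0 h, and 7006 and 6340 in controls at 12 h, against 2145 and 2356 at 0 h, a difference of 2.01 ± 0.16 (SE, adjusted p = 3.3e-06), and Sdr, another secreted binder of insulin-like peptides, differed by -1.26 ± 0.10 (SE, adjusted p = 5.2e-06). The peptide Ilp5 was at -0.56 ± 0.13 (SE, adjusted p = 0.0084), Ilp2 at -0.01 and foxo at -0.26. Oxidative phosphorylation genes showed a small shift without calls, since all 32 tested genes of the study's list had a negative difference, between -0.40 and -0.07 with a median of -0.25, and 14 of them passed the adjusted p alone, which 14.4% of all tested genes did in that direction. Complex I, with 32 genes of 32 negative and a median of -0.22, was alike, and the 2 lists share genes. The unadjusted p was under 0.05 in the lower direction for 24 and 22 genes of these lists, and neither edgeR nor DESeq2 called any.

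DNA repair genes, again from a list of the study, were called higher for 19 of 102 and lower for 1, with a median of 0.25. In all 19.6% were called, against 15.8% of all tested genes. Ku80 had 1233 and 1327 normalized counts in mutants at 12 h, against 234 and 223 at 0 h, and 611 and 561 in controls at 12 h, against 522 and 462 at 0 h, a difference of 2.23 ± 0.11 (SE, adjusted p = 1.9e-07), with mutants lower at 0 h and higher at 12 h than controls. Irbp, the Ku70 that pairs with Ku80 at broken ends, had 1452 and 1709 normalized counts in mutants at 12 h, against 249.9 and 236 at 0 h, and 486 and 412 in controls at 12 h, against 214 and 238 at 0 h, a difference of 1.71 ± 0.15 (SE, adjusted p = 8.4e-06). RfC4, a clamp loader subunit, differed by 1.63 ± 0.18 (SE, adjusted p = 3.5e-05), PCNA by 2.08 ± 0.49 (SE, adjusted p = 0.0077) at 7.12 to 37.3 normalized counts, and mre11 and rad50, which process double-strand breaks, by 1.11 and 1.03. cry, the photoreceptor listed among photolyases, was the gene called lower, at -1.16 ± 0.10 (SE, adjusted p = 7.5e-06). Proteasome subunits, which degrade ubiquitinated proteins, were called higher for 12 of 36 and lower for 1, with a median of 0.52. Rpn8 had 3627 and 4258 normalized counts in mutants at 12 h, against 1439 and 1489 at 0 h, and 2289 and 2311 in controls at 12 h, against 1797 and 1675 at 0 h, a difference of 1.02 ± 0.10 (SE, adjusted p = 1.2e-05). The gene called lower was Rpt4R, a relative of a base subunit, at -0.82 ± 0.15 (SE, adjusted p = 0.0014). The number called higher rested on the mutant 12 h libraries, being 19 without replicate 1 and 6 without replicate 2.

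**Figure D3:**
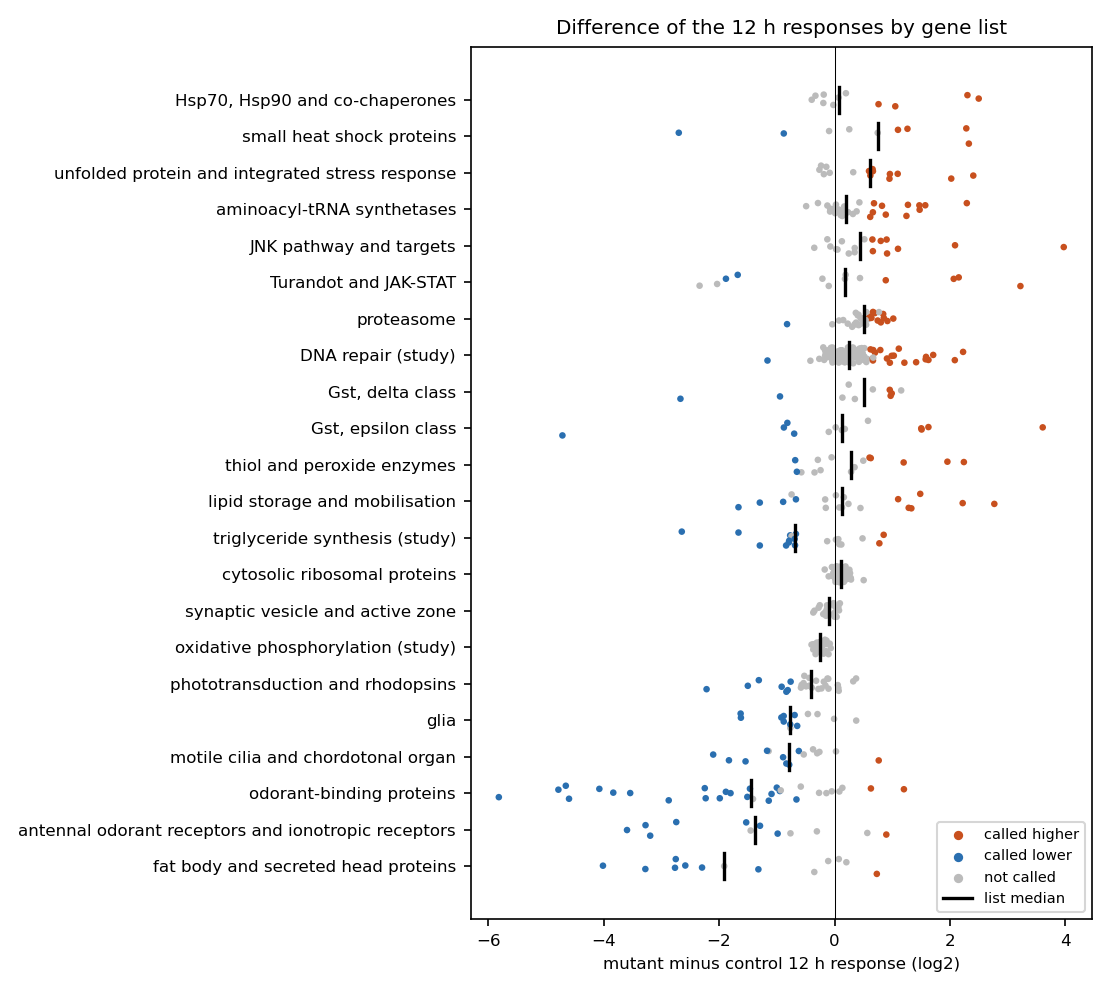
Difference of the 12 h responses (mutant minus control, log2) for the tested genes of 22 lists. Each point is a gene, coloured by its call, and the black bar is the median of the list, from 0.75 for small heat shock proteins to -1.91 for fat body and secreted head proteins. The Hsp70 copies are drawn once, as Hsp70Aa, and lush is left out of the antennal receptors. No gene is called among the synaptic, cytosolic ribosomal and oxidative phosphorylation lists.

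Many of the largest negative differences were those of antennal genes. Of 30 odorant-binding protein genes, which carry odorants in sensory lymph, 20 were called lower and 2 higher, with a median of -1.44. Without mutant 12 h replicate 1 the number of these called higher was 1. Of 12 tested genes for antennal receptors and the membrane protein Snmp1, 7 were called lower and 1 higher, with a median of -1.37, and 0 were called higher without control 0 h replicate 1 or control 12 h replicate 1. These counts leave out lush, an odorant-binding protein that had been put in that list, a choice made after the values were seen. Obp83b had 59.5 and 107 normalized counts in mutants at 12 h, against 1707 and 1623 at 0 h, and 146 and 166 in controls at 12 h, against 142 and 95.3 at 0 h. Here the mutant 0 h libraries were the high ones, and the other 3 groups lay together. Its difference was -4.78 ± 0.37 (SE, adjusted p = 3.2e-06), and at 0 h alone mutants were 3.83 above controls (log2). Os-C, a10, a5 and Obp83a, all named for antennal expression or odorant binding, followed this pattern, with differences of -4.97, -5.22, -4.75 and -4.60. lush, which binds a male pheromone, had 30.3 and 38.5 normalized counts in mutants at 12 h, against 531 and 513 at 0 h, and 62.2 and 62.9 in controls at 12 h, against 97.5 and 66 at 0 h, a difference of -3.54 ± 0.27 (SE, adjusted p = 3.0e-06). Obp59a had 1.08 and 15.6 normalized counts in mutants at 12 h, against 259 and 226 at 0 h, and 19.1 and 39.6 in controls at 12 h, against 38.9 and 10 at 0 h, with duplicates far apart at 12 h in mutants, and its difference of -5.81 ± 1.14 (SE, adjusted p = 0.0025) ran from -7.31 to -4.31 with 1 library left out. Acsx2, an acyl-CoA synthetase, also did, with 15.1 and 10.8 normalized counts in mutants at 12 h, against 659.8 and 675 at 0 h, and 68.2 and 45.4 in controls at 12 h, against 93.7 and 68.6 at 0 h and a difference of -5.08 ± 0.33 (SE, adjusted p = 1.0e-06).

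Other antennal genes had in addition a rise in controls. Obp28a had 82.2 and 128 normalized counts in mutants at 12 h, against 429 and 455 at 0 h, and 487 and 499 in controls at 12 h, against 98.2 and 70.2 at 0 h, so the 0 h controls were the lowest libraries together with the 12 h mutants, and its difference was -4.65 ± 0.32 (SE, adjusted p = 1.6e-06). Antdh, an antennal dehydrogenase, had 88.7 and 98.7 normalized counts in mutants at 12 h, against 1039 and 932 at 0 h, and 644 and 707 in controls at 12 h, against 257 and 194 at 0 h, a difference of -4.97 ± 0.18 (SE, adjusted p = 2.4e-08). Jhedup, a juvenile hormone esterase relative, had 103 and 129 normalized counts in mutants at 12 h, against 786 and 909.9 at 0 h, and 317 and 293 in controls at 12 h, against 77.8 and 62.7 at 0 h, a difference of -4.98 ± 0.19 (SE, adjusted p = 3.6e-08). Orco, the co-receptor needed by most odorant receptors, had 111 and 135 normalized counts in mutants at 12 h, against 514 and 448 at 0 h, and 319 and 327 in controls at 12 h, against 136 and 124 at 0 h, a difference of -3.27 ± 0.21 (SE, adjusted p = 8.6e-07).

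The level of antennal markers as a group moved with these results. The 28 genes of the list, without lush, summed to 1048 and 1038 normalized counts in mutants at 12 h, against 2163 and 2056 at 0 h, and 1682 and 1887 in controls at 12 h, against 1758 and 1588 at 0 h. At 6 h they summed to 1784 and 1681 in mutants and 2220 and 2208 in controls, so the control level was not steady between times. The mutants at 12 h were the lowest and the mutants at 0 h the highest of these 8 libraries, and controls at 0 and 12 h overlapped. Genes of motile cilia and the chordotonal organ, a hearing and stretch organ of the antenna and elsewhere, gave 2232 and 1988 normalized counts in mutants at 12 h, against 3727 and 3633 at 0 h, and 2008 and 2166 in controls at 12 h, against 1960 and 1915 at 0 h, with 8 of 15 called lower, 1 higher and a median of -0.78. That count was 4 or 5 when control 0 h replicate 1 or 2, control 12 h replicate 2, mutant 0 h replicate 1 or mutant 12 h replicate 2 was left out. At 6 h these genes summed to 3295 and 3312 in mutants and 3705 and 2834 in controls, so the control level was not steady here either. Dhc93AB, an axonemal dynein heavy chain, had 484 and 295 normalized counts in mutants at 12 h, against 1758 and 1789 at 0 h, and 626 and 595 in controls at 12 h, against 675 and 658 at 0 h, a difference of -2.10 ± 0.29 (SE, adjusted p = 0.00022). At 6 h it had 1316 and 1378 normalized counts in mutants and 1668 and 1088 in controls. Fewer cells of a type and less RNA per cell cannot be told apart in RNA from whole heads, and the part of lost or unequally kept antennae in these results was not tested.

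**Figure D4:**
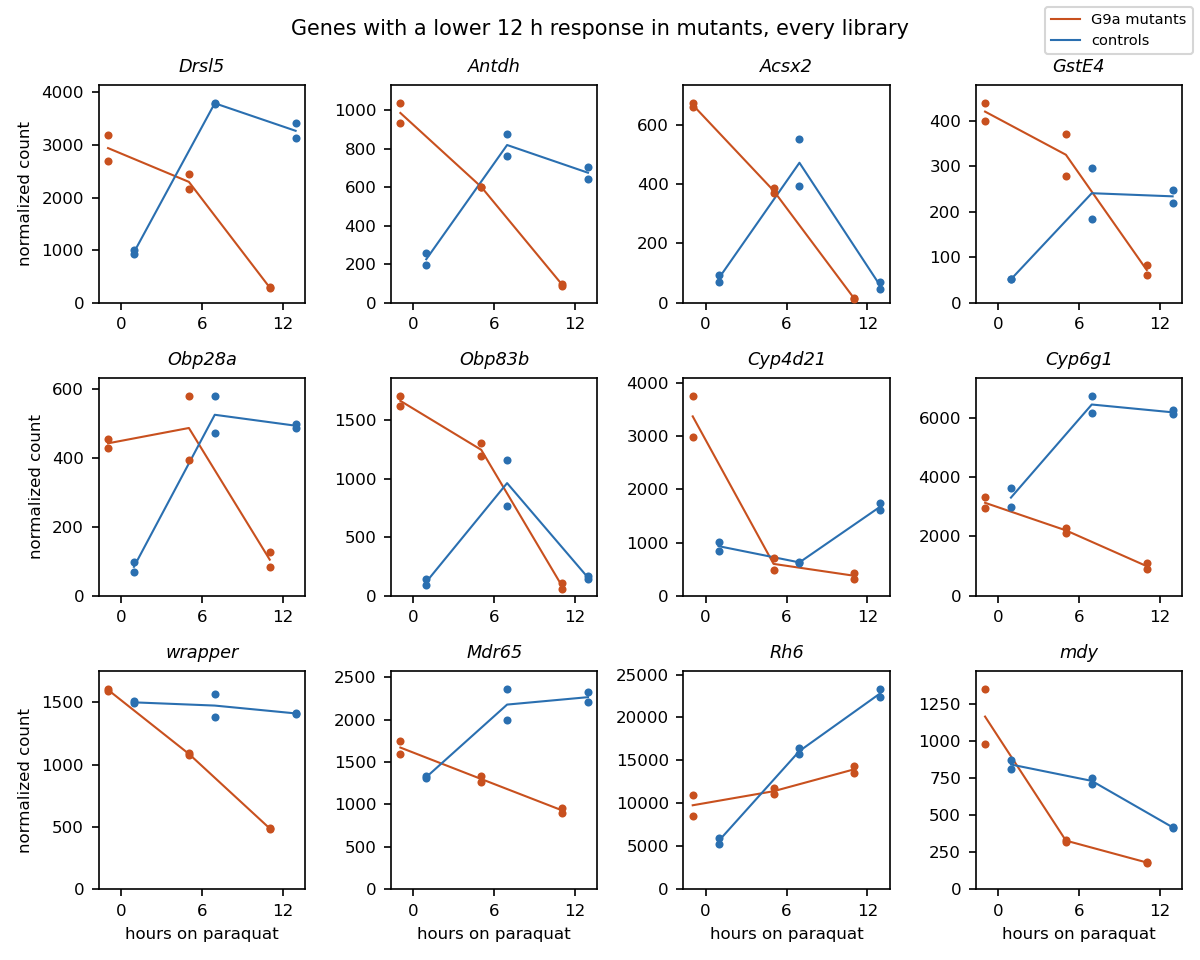
Normalized counts of 12 genes with a lower 12 h response in mutants, at 0, 6 and 12 h on paraquat (horizontal axis), each panel with its own linear axis from 0. Points are single libraries, lines join the means of 2 libraries, and mutants are drawn left of controls. For Obp83b and Acsx2 the mutant 0 h libraries are high and the 0 h and 12 h controls low, whereas for wrapper the 0 h libraries of both genotypes are alike and only mutants fall.

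Genes of the head fat body and secreted proteins had a median of -1.91, with 7 of 13 called lower and 1 higher. apolpp, the main carrier of lipids in hemolymph, differed by -2.58 ± 0.19 (SE, adjusted p = 2.2e-06), with responses of -3.25 in mutants and -0.67 in controls. The storage proteins Lsp1alpha and Lsp2 differed by -2.75 and -2.29. sxe2, a sex-regulated lipase relative, had 388 and 428 normalized counts in mutants at 12 h, against 4836 and 6071 at 0 h, and 3056 and 3014 in controls at 12 h, against 4122 and 4182 at 0 h. Mutants fell in both libraries, and the difference was -3.28 ± 0.15 (SE, adjusted p = 1.0e-07). Cyp4d21, a sex-specific P450 of the fat body, had 428 and 325 normalized counts in mutants at 12 h, against 2985 and 3753 at 0 h, and 1608 and 1742 in controls at 12 h, against 846 and 1019.9 at 0 h, a difference of -4.01 ± 0.26 (SE, adjusted p = 9.7e-07). Apoltp, a lipid transfer particle, was called higher, at 0.73 ± 0.14 (SE, adjusted p = 0.002), a call that was lost without mutant 0 h replicate 1, and the fat body genes to and NLaz were not called, at -0.11 and 0.21. The 16 genes of the list summed to 21120 and 24360 normalized counts in mutants at 12 h, against 86480 and 110500 at 0 h, and 84680 and 87430 in controls at 12 h, against 152600 and 150600 at 0 h. Mutants were below controls of the same time in every library, at 0 h as at 12 h. Antimicrobial peptides, also made in fat body, had 0 of 14 called higher and 2 lower, Drsl5 and Drsl4. Their summed level was 621 and 10140 in mutants at 12 h, so the duplicates lay far apart, and the calls depended on which of them was kept. More genes were called lower without mutant 12 h replicate 2, and a higher call appeared without mutant 12 h replicate 1.

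Glial genes were called lower for 8 of 13 and higher for 0, with a median of -0.77. wrapper, an adhesion protein of midline and cortex glia, had 483 and 491 normalized counts in mutants at 12 h, against 1605 and 1593 at 0 h, and 1408 and 1412 in controls at 12 h, against 1506 and 1491 at 0 h. The 2 mutant 12 h libraries stood alone below all other libraries, and the difference was -1.63 ± 0.08 (SE, adjusted p = 2.0e-07). Mdr65, an ABC transporter of the blood-brain barrier, had 959 and 901 normalized counts in mutants at 12 h, against 1590.2 and 1754 at 0 h, and 2209.7 and 2325 in controls at 12 h, against 1334 and 1312 at 0 h, a difference of -1.62 ± 0.11 (SE, adjusted p = 1.4e-06), with controls up and mutants down. Inx2, a gap junction protein, and Gat, the GABA transporter, differed by -0.88 ± 0.14 (SE, adjusted p = 0.0006) and -0.92 ± 0.15 (SE, adjusted p = 0.00087), the glutamate transporter Eaat1 by -0.88 ± 0.09 (SE, adjusted p = 2.4e-05) and the glial master regulator repo by -0.65 ± 0.10 (SE, adjusted p = 0.00069). Eaat2 and moody were not called, at -0.01 and 0.38. The 13 genes summed to 64170 and 69490 normalized counts in mutants at 12 h, against 77090 and 82680 at 0 h, and 82470 and 84620 in controls at 12 h, against 73590 and 75550 at 0 h. Mutants at 12 h were the lowest, and controls at 12 h overlapped mutants at 0 h. Synaptic genes, a marker of neurons, had 0 of 23 called by limma, edgeR or DESeq2, 6 with an unadjusted p under 0.05, a median of -0.10 and a range of -0.37 to 0.09.

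**Figure D5:**
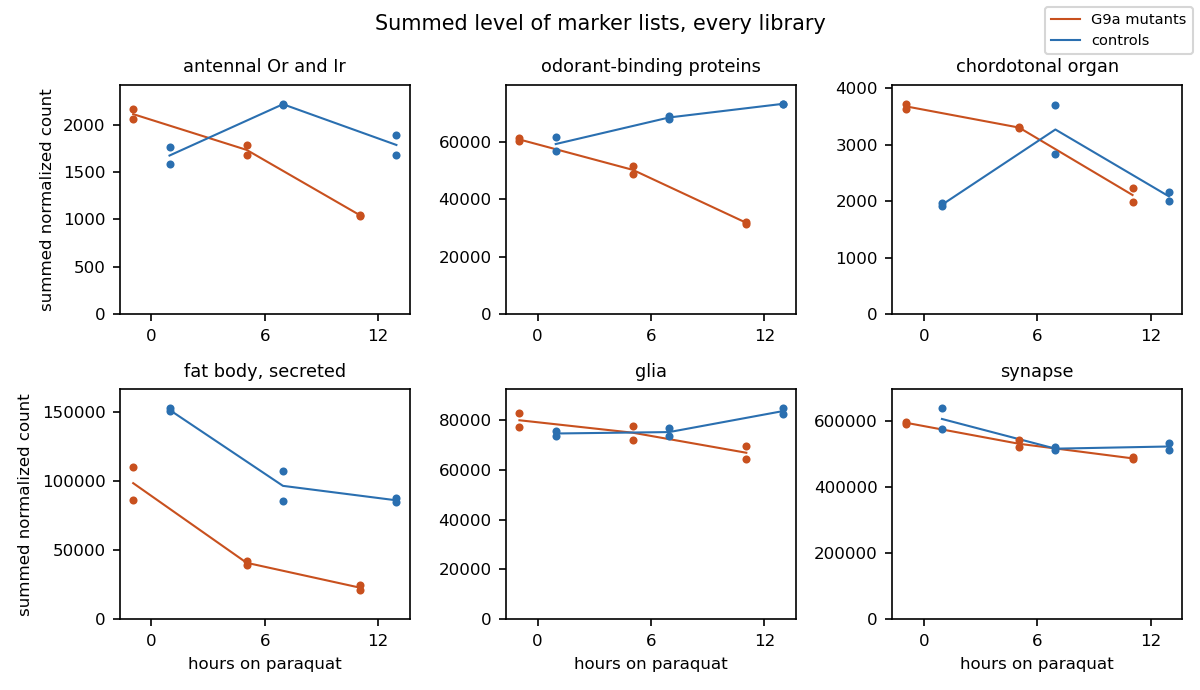
Summed normalized counts of 6 marker lists in every library at 0, 6 and 12 h on paraquat, with axes from 0. Points are libraries, lines join the means of 2, and mutants are drawn left of controls. The antennal receptor sum, without lush, ends at 1048 and 1038 in mutants at 12 h, while the synaptic sum lies between 484500 and 638800 in the 0 h and 12 h libraries.

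Photoreceptor genes gave 7 of 28 called lower and 0 higher, with a median of -0.42. Rh6, an opsin of inner photoreceptors, had 14379 and 13544 normalized counts in mutants at 12 h, against 8513 and 11017 at 0 h, and 22325 and 23297 in controls at 12 h, against 5914 and 5283 at 0 h. Its response was positive in both genotypes and smaller in mutants, with mutants starting higher, and the difference was -1.5 ± 0.14 (SE, adjusted p = 1.1e-05). Rh5, the other opsin of that cell layer, had 19966 and 23453 normalized counts in mutants at 12 h, against 8754 and 12830 at 0 h, and 9303 and 9382 in controls at 12 h, against 1050 and 922 at 0 h, a difference of -2.22 ± 0.20 (SE, adjusted p = 9.6e-06). At 12 h Rh5 was still higher in mutants, so its negative difference came with a mutant excess of 3.43 (log2) at 0 h. ninaB, which makes the retinal chromophore, had 1537 and 1515 normalized counts in mutants at 12 h, against 2960.2 and 2998 at 0 h, and 2253 and 2346 in controls at 12 h, against 1886 and 1733 at 0 h, a difference of -1.31 ± 0.08 (SE, adjusted p = 6.2e-07). Clock genes cycle over the day. tim, a core repressor of the clock, rose in both genotypes and had 61649 and 60309 normalized counts in mutants at 12 h, against 5506 and 5900.1 at 0 h, and 63503 and 68140 in controls at 12 h, against 3639.7 and 4005 at 0 h. tim and cry were the 2 of 8 called, both lower, with tim at -0.69 ± 0.09 (SE, adjusted p = 0.00018), while per, Clk and Pdp1 were at 0.26, -0.38 and -0.04.

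Of 8 tested hemocyte genes 2 were called higher and 0 lower, 25% in all against 15.8% of all tested genes. NimC1, a phagocytosis receptor of hemocytes, had 232 and 286 normalized counts in mutants at 12 h, against 31.7 and 29.5 at 0 h, and 87.3 and 101 in controls at 12 h, against 161 and 140.4 at 0 h, a difference of 3.70 ± 0.27 (SE, adjusted p = 2.4e-06), with mutants lower than controls at 0 h. Sr-CI, a scavenger receptor, differed by 1.28 ± 0.27 (SE, adjusted p = 0.0038), but the hemocyte genes Hml, Pxn and eater were at 0.53, -0.16 and 0.09, none called, and the 9 genes summed to 9122 and 8947 normalized counts in mutants at 12 h, against 10140 and 9874 at 0 h, and 8767 and 8366 in controls at 12 h, against 9946 and 9101 at 0 h. nAChRbeta3 had 467 and 581 normalized counts in mutants at 12 h, against 49.2 and 56.9 at 0 h, and 130.4 and 99 in controls at 12 h, against 143 and 153 at 0 h, a difference of 3.66 ± 0.36 (SE, adjusted p = 1.7e-05), whereas the other 8 of 9 nicotinic subunits, from nAChRalpha1 at -0.41 to nAChRalpha6 at 0.23, were not called. Further genes among the 12 with the largest positive differences were Tsp42Er, a tetraspanin, at 3.14 ± 0.30 (SE, adjusted p = 1.5e-05), Sid, a stress-induced DNase, at 2.85 ± 0.32 (SE, adjusted p = 4.9e-05), and CG9451 at 3.17 ± 0.16 (SE, adjusted p = 2.0e-07).

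For CG8851 and Sr-CIV the positive difference rested on transcripts nearly absent from unexposed mutants. CG8851 had 0 reads in the 2 mutant libraries at 0 h and 47 reads at 12 h, which makes the mutant rise at least 26.2-fold against a floor of 3 reads over the group, while controls had 1376 and 1277 normalized counts at 12 h, against 1537 and 1391 at 0 h. Mutants therefore stayed far below controls at both times. Sr-CIV had 38 reads at 12 h in mutants, against 3 at 0 h, a 21.2-fold rise whose 95% counting interval is 6.72 to 107, and 824 and 787 normalized counts in controls at 12 h, against 841 and 887 at 0 h. Its call (adjusted p = 0.039) held under 13 of 24 alternatives. It was not kept when any single 0 h or 12 h library was left out, although the difference stayed at 3.40 to 3.82.

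Genes that act on lysine 9 of histone H3 differed little. Of 12 tested genes 1 was called, Su(var)3-9, another methyltransferase for this residue, at 0.73 ± 0.22 (SE, adjusted p = 0.028), with responses of 0.98 in mutants and 0.25 in controls, and its call held under 17 of 24 alternatives but not without control 0 h replicate 2, control 12 h replicate 2, mutant 0 h replicate 1 or either mutant 12 h library. The methyltransferase egg was at -0.16 and the demethylase Kdm4A at 0.09. Mitochondrial ribosomal proteins, with 0 of 70 called by limma, edgeR or DESeq2 and 11 at an unadjusted p under 0.05, autophagy genes, with 2 of 21 called higher, and thoracic flight muscle markers, with 1 of 15 called higher, completed the lists with few calls, against 7.26% called higher over all genes.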

How the data were processed

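RNA from pools of 200 heads was sequenced single-end in 12 libraries. Per the labels and the study's methods, the authors used BWA for alignment to build BDGP 5, HTSeq for reads per gene and a DESeq size factor per library for scaling, and the deposited table holds these normalized counts (a signal, not whole reads). All 188184 values were whole multiples of 1 read (tolerance 0.01), so reads were recovered for alternatives. The authors' tables of DESeq comparisons hold fold changes and p-values and were not used.

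A linear model of log2(normalized count + 1) was made in limma 3.58.1 under R 4.3.3, with eBayes and an intensity trend, over all 6 groups of 2 libraries, with 6 residual degrees of freedom, for 10530 genes with a mean of at least 10 over 12 libraries. Calls needed a 1.5-fold difference and p, adjusted over all tested genes by Benjamini-Hochberg, not above 0.05. An exact permutation test of 2 against 2 cannot go below 0.333, so none was used. Gene lists are described by counts and medians, with no test.

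Members, lists and the naming rule were chosen with earlier results of these data known. Genes that could be named were the 12 largest positive and 12 largest negative called differences among genes with a mean of at least 100 and responses that do not overlap, the 3 largest in each shape of response, up to 4 called genes per list with defining uncalled members, and GstE1, Prx2540-1, Cat, Ldh, bgm, CG11437, CG11438 and G9a, which the study names. Not all of them are printed. Other called members are named where a count needs them and were chosen after their values were seen. Symbols came from a later annotation for 15002 IDs, and 25 list entries found no ID.

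Alternatives were another pseudocount, minimum, scaling or fold threshold, median centring, only the 8 libraries, a replicate block, edgeR 4.0.16, DESeq2 1.42.0, reads thinned to 19275805, and each library left out. The comparison of 6 h with 12 h was added after the data were seen. Tested on simulated data of 10525 genes, limma recovered 63 of 100 2-fold and 87 of 100 3-fold differences of the 12 h responses, with 8 false calls.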

Additional observations from a re-analysis of the deposited data

Results flagged for a closer look

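The 1663 genes called in the difference of the 12 h responses each had an effect of time that differed between mutants and controls by the interaction test in limma. They are the subject of the text above.

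Some of the named genes also had a difference with one sign at 6 h and the other at 12 h, together with a called difference of the responses from 6 h to 12 h, which uses the 6 h and 12 h libraries alone. Over all genes 552 were called in that later comparison (5.24%), 239 higher and 313 lower in mutants, and 81 of those were also called at 12 h with opposite signs at the 2 times. Among chaperones the later difference was 3.09 (log2) for Hsp70Aa, 3.13 for Hsp70Ab, 2.92 for Hsp70Bbb, 2.72 for Hsp68 and 2.37 for Hsp27, with adjusted p between 0.0013 and 0.01. The copies of Hsp70 share reads. Gapdh2 and Cat had smaller ones, 0.85 and 0.71, and 3 genes had a negative later difference, -1.06 for Hex-C, -0.97 for the serpin Spn43Ab and -0.97 for the GABA transporter Gat. For Hsp27, Cat, Gat and Spn43Ab the 6 h values were -0.04, -0.08, 0.05 and 0.08, near 0, so their sign there carries little. None of the genes named here had a called difference at 6 h, where limma's lowest adjusted p among them was 0.081 (Hex-C). Their opposite signs at 6 h are therefore not firm, and the count of 81 needed no call at 6 h.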

How the results depend on the processing

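Of 145 genes that met the naming rule and had a called difference, 0 changed sign under any of the 24 alternatives in which they were tested. For genes whose responses do not overlap, leaving out a library cannot change the sign, so this says little about how firm they are. Other than under the stricter fold threshold, 15 of the 145 genes lost the call in at least 1 alternative, and 8 more were left out of the test by a minimum mean of 50. With a fold threshold of 2 there were 955 genes called, 387 higher and 568 lower. Without 1 library the count ranged over 1509 to 1663 in all, 651 to 814 higher and 755 to 897 lower, and 85.9% to 98.3% of the 1663 genes were called again in the same direction. The lowest share was without mutant 12 h replicate 2. DESeq2 called 1537 genes and edgeR 1711, of which 1516 and 1647 were among the 1663, and reads thinned to 19275805 gave 1623. Other scalings moved the share of calls that were higher in mutants to between 45.4% and 48.6%, against 46%, and the median difference over all genes to between 0.01 and 0.05, and 0 of the 145 genes changed sign with them. The scaling alone can change the sign of values within 0.03 of 0. The median SE over all tested genes was 0.12, so many values further from 0 have no firm sign either. Same-numbered duplicates were not treated as pairs, and the correlations of their deviations from the group means had no common sign, from -0.57 to 0.45. Controls at 0 h and 12 h, both used here, gave 0.45, and controls at 6 h and 12 h gave -0.57. What these control libraries share was not tested. A fit with the replicate number as a block called 1657 genes, 764 higher and 893 lower. The 2 libraries per group, with duplicates of unequal spread, limit what can be called, so genes not called here may still differ. On simulated data limma recovered 63 of 100 2-fold differences. The simulation gave each gene the same spread in all groups and changed fewer genes than were called here. That share therefore does not carry over to these data. Library sizes differ between 0 h and 12 h in both genotypes.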
